A study of Mus musculus with 15 samples.

Results

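The CXC chemokines are small secreted or membrane-tethered proteins, and their receptors are G protein-coupled receptors on leukocytes and other cells. 10 mouse genes of this family were followed, 8 ligands (Cxcl1, Cxcl2, Cxcl9, Cxcl10, Cxcl12, Cxcl13, Cxcl14 and Cxcl16) and 2 receptors (Cxcr4 and Cxcr6). They were taken by gene symbol from a list of the family, drawn up with earlier results of these data known, and make up 10 of the 24411 genes counted in bulk poly(A) RNA of mouse liver. In liver, damaged hepatocytes, biliary cells, sinusoidal endothelium, stellate cells and macrophages are all known sources of these ligands. A ligand binds its receptor on a passing leukocyte, the receptor signals through inhibitory G proteins, and the cell moves up the ligand gradient. Cxcl1 and Cxcl2 act on Cxcr2 and draw neutrophils, Cxcl9 and Cxcl10 are induced by interferon and act on Cxcr3 of T and NK cells, Cxcl12 acts on Cxcr4, Cxcl13 on Cxcr5 of B cells, and Cxcl16 on Cxcr6.

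The labels place 15 libraries in 3 groups, 6 labelled LATS KO, 5 labelled Yap OE and 4 labelled TdTomato. LATS1 and LATS2 are Hippo pathway kinases that hold the coactivator YAP in check, TdTomato is a red fluorescent protein, and the design text describes Lats knockout, Yap overexpression and wild type liver. No label gives a strain, an age, a time, a promoter, a vector or which LATS gene was deleted, and none says whether libraries of the same label are different animals, so p-values measure the spread between libraries, which may be technical. By its title, the study is about how monocytes limit the proliferation that YAP induces.

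Depth ran between 6166680 and 28225360 gene counts per library. In LATS KO 3 and TdTomato 1, 89.9% and 78.5% of the reads were unmapped, against at most 16.7% in the other libraries, and 9710 and 8501 genes were detected there, against at least 13372. Yap1 lay between 146 and 212 counts scaled to library size (CPM, TMM-scaled) in Yap OE, against 94.9 to 115 CPM in TdTomato. Lats1 lay between 0 and 27.4 CPM in LATS KO, against 0 to 46.0 CPM in TdTomato, the 0 values being those of LATS KO 3 and TdTomato 1. Without these libraries Lats1 was at 10.5 to 27.4 CPM in LATS KO and 28.7 to 46.0 CPM in TdTomato, with no overlap. Lats2 lay between 7.67 and 41.0 CPM in LATS KO, against 0 to 19.6 CPM in TdTomato. Its ranges overlapped with and without these libraries. Counts over a whole gene do not check a deletion. The LATS KO libraries were not alike: Ctgf, a YAP target gene, was at 1811, 2485 and 3136 CPM in LATS KO 1 to 3 and at 82.7, 41.7 and 20.6 CPM in LATS KO 4 to 6, against 265 to 465 CPM in Yap OE and at most 0.556 CPM in TdTomato. All 8 hepatocyte markers had counts in each group, with a summed level of 40647 to 175371 CPM in LATS KO, 77462 to 135970 CPM in Yap OE and 98103 to 170259 CPM in TdTomato.

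5 of the 10 genes lie on mouse chromosome 5. Cxcl1 (chr5:90891241-90893115, plus strand, GRCm38) and Cxcl2 (chr5:90903871-90905938, plus strand) are neighbours 10.76 kb apart, and Cxcl10 (chr5:92346638-92348889, minus strand) and Cxcl9 (chr5:92321347-92328079, minus strand) are 18.56 kb apart. In each pair the test in Yap OE called 1 gene and not its neighbour (Cxcl2 and not Cxcl1, Cxcl10 and not Cxcl9), so the 250 bases before their start sites are shown, taken from RefSeq (GRCm38.p6), 5′ to 3′ on the strand of the gene. A window was held for 9 of the 10 genes. Capitals mark the matches to the NF-kB consensus, the interferon-stimulated response element GAAANNGAAA, the gamma-activated site TTCNNNGAA, the AP-1 site TGANTCA and the TEAD site GGAATG, each searched on both strands.
Cxcl1 (chr5:90890995-90891244): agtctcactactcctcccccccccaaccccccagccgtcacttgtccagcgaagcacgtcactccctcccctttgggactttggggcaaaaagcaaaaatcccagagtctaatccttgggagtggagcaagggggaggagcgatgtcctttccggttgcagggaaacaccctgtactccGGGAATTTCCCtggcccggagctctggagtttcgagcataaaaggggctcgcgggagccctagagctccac
Cxcl2 (chr5:90903649-90903898): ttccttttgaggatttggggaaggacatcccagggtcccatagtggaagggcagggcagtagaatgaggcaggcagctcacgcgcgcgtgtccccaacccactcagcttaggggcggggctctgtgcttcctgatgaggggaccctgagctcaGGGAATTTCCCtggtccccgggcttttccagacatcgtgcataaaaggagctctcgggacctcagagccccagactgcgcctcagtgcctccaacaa
Cxcl9 (chr5:92328080-92328329): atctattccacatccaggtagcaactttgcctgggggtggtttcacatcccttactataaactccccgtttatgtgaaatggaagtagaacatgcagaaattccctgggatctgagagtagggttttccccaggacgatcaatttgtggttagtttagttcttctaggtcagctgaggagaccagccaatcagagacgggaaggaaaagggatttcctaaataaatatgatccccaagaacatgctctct
Cxcl10 (chr5:92348890-92349139): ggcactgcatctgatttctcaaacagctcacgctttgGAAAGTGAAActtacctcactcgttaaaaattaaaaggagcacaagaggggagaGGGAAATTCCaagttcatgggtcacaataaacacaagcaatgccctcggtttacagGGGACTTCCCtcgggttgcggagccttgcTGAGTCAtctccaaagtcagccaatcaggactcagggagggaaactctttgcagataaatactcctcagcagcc
Cxcl13 (chr5:95956689-95956938): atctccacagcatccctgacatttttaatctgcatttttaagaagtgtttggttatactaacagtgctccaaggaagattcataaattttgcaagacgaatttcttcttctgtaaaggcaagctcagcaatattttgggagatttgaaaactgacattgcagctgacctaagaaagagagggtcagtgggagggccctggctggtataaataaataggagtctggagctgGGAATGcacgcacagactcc

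The windows of Cxcl1 and Cxcl2 hold the same capital run, which is a pair of overlapping NF-kB matches, beginning at −71 and −97 from the start. The window of Cxcl10 holds an interferon-stimulated response element at −213, NF-kB matches at −159 and −103 and an AP-1 match at −74, while that of its neighbour Cxcl9 holds none of the 5 motifs. Cxcl13, shown because it had the largest log2 fold change among these genes in Yap OE, holds a TEAD match at −20. Cxcl14 (not printed) holds a gamma-activated site at −191 and an interferon-stimulated response element at −172, and Cxcl12, Cxcr4 and Cxcr6 hold none of the 5. Of all 32851 windows of the same length, 3.9% hold the NF-kB consensus, 2.98% the interferon-stimulated response element, 7.02% the gamma-activated site, 6.75% the AP-1 site and 12.6% the TEAD site, so a match describes the sequence and no more.

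In LATS KO, Cxcl2, Cxcl13, Cxcl16 and Cxcr4 were higher than in TdTomato, and none of these genes was called lower. In Yap OE, the same comparison called Cxcl2, Cxcl10, Cxcl13, Cxcl16 and Cxcr4 higher and Cxcl12 lower. Thus 4 of the 10 genes were higher in LATS KO, where 10.04% of the 13055 genes tested were called higher and 0.973% lower (edgeR's quasi-likelihood test, Benjamini-Hochberg adjusted p under 0.05). In Yap OE 5 were higher and 1 lower, where 17.9% of the genes tested were called higher and 10.8% lower. 9 of the 10 passed the filter on low counts; Cxcr6 did not, and Cxcl2, Cxcl13 and Cxcr4, with 8, 5 and 8 counts over all 4 TdTomato libraries, passed it on their counts in the other groups, so the counts of calls describe these genes and support nothing. The median log2 fold change of the 9 was 1.91 in LATS KO and 2.52 in Yap OE, against 0.13 and 0.17 over all genes tested. The calls in LATS KO rest on a spread pooled with Yap OE. A fit of LATS KO and TdTomato alone called none of the 4 (adjusted p = 0.119 for Cxcl2, 0.142 for Cxcl13, 0.181 for Cxcr4 and 0.234 for Cxcl16). In that fit 5 of the 9 had an unadjusted p under 0.05, as did 2013 of all genes. It called 1 of all genes, against 1438 in the main fit, so the loss of calls was not particular to these genes. DESeq2 and limma with voom on all libraries called 7 and 5 of the 9, where they called 2894 and 3501 of all genes. The comparisons share the 4 TdTomato libraries and are not independent of each other. With plain library totals in place of TMM scaling, a setting added after seeing the data, the median of all genes moved to 0.46 in LATS KO and 0.73 in Yap OE, and 84.2% instead of 62.3% of the calls in Yap OE were higher.

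**Figure D1:**
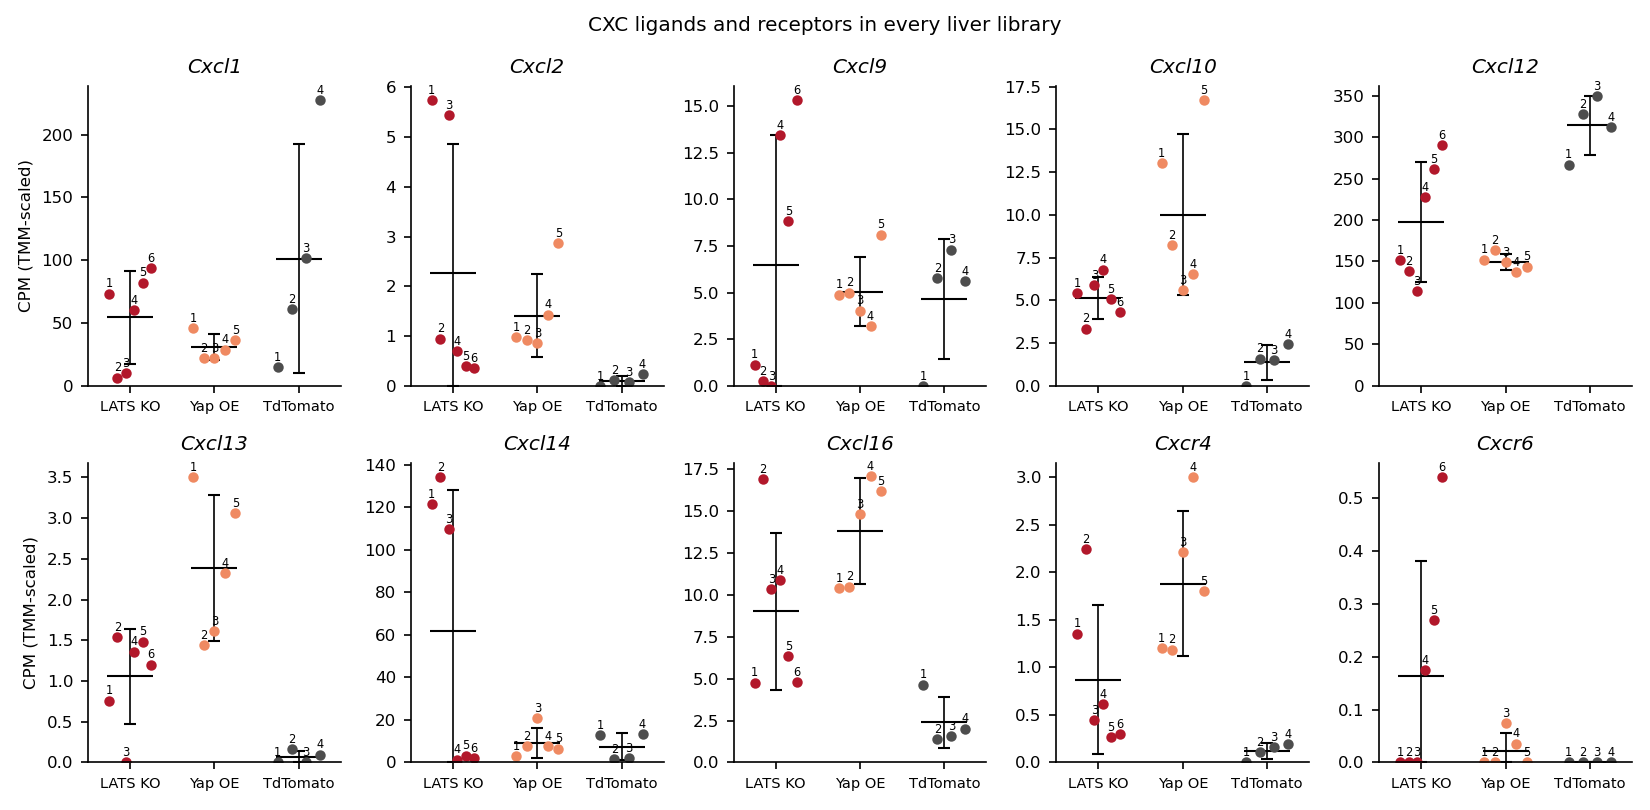
CPM (TMM-scaled, linear axes from 0) of the 10 genes in each library, with LATS KO, Yap OE and TdTomato from left to right; numbers are the replicate numbers, horizontal bars the group means and whiskers ± 1 SD, drawn no lower than 0. Cxcl14 stands at 110 to 134 CPM in LATS KO 1 to 3 and at 1.32 to 3.24 CPM in LATS KO 4 to 6, and Cxcl12 in Yap OE lies below every TdTomato library.

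**Figure D2:**
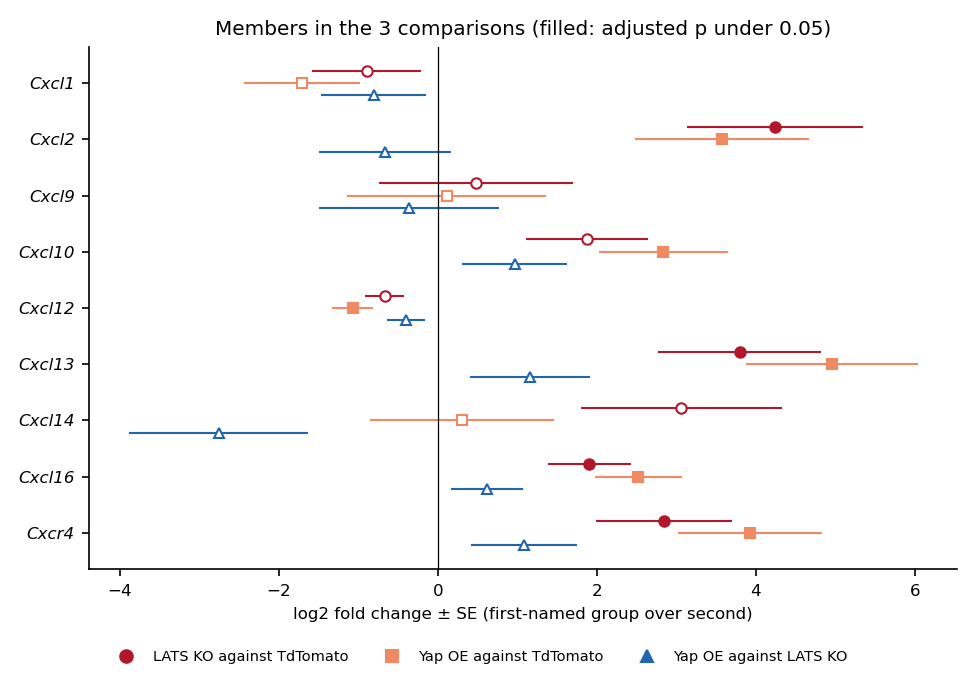
Log2 fold changes with standard errors (horizontal axis) of the 9 genes tested (vertical axis), for LATS KO against TdTomato, Yap OE against TdTomato and Yap OE against LATS KO. Filled symbols have an adjusted p under 0.05, and no triangle (Yap OE against LATS KO) is filled.

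The neutrophil-attracting ligands were Cxcl1 and Cxcl2. Cxcl2 was at 0.361 to 5.74 CPM in LATS KO (median 0.827), at 0.985, 0.926, 0.860, 1.43 and 2.86 CPM in Yap OE 1 to 5, and at 0, 0.110, 0.0794 and 0.239 CPM in TdTomato 1 to 4. The highest LATS KO values were 5.74 and 5.44 CPM in LATS KO 1 and 3. The lowest, in LATS KO 5 and 6, rest on 6 counts each, and the TdTomato libraries held at most 5 counts each. Neither LATS KO nor Yap OE overlapped TdTomato, as was so for 6.65% and 28.3% of all genes tested in the higher direction. Cxcl2 rose in LATS KO by 4.24 ± 1.11 on the log2 scale (SE, n = 6 and 4, edgeR adjusted p = 0.0245) and in Yap OE by 3.57 ± 1.10 (n = 5 and 4, adjusted p = 0.0247). The call in LATS KO was lost without any single TdTomato library (adjusted p = 0.0501 to 0.0765), and the log2 fold change was 4.97 without TdTomato 4 and 3.40 without both LATS KO 3 and TdTomato 1, where the call was kept. In Yap OE it was lost without TdTomato 2, TdTomato 3 or Yap OE 5 (adjusted p = 0.0523 to 0.0614), and without TdTomato 4 the log2 fold change was 4.30.

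Cxcl1, the mouse ligand KC, is made by hepatocytes and other cells in injury and was the more abundant of the pair, at 29.1 and 1.10 CPM per kb of exon for Cxcl1 and Cxcl2 in LATS KO. In CPM it was at 73.5, 6.57, 10.4, 60.4, 82.2 and 93.9 CPM in LATS KO 1 to 6, at 46.2, 21.97, 21.9, 29.0 and 36.4 CPM in Yap OE 1 to 5 and at 15.02, 61.0, 102 and 228 CPM in TdTomato 1 to 4. LATS KO 2 and 3 were lowest, TdTomato 4 was highest, and the groups overlapped. Its log2 fold change was −0.90 ± 0.69 in LATS KO (adjusted p = 0.462) and −1.71 ± 0.73 in Yap OE (adjusted p = 0.0916), neither past the threshold. Without LATS KO 3 and TdTomato 1 it was −2.07 in Yap OE (adjusted p = 0.0147), a value past it, and −1.04 in LATS KO (adjusted p = 0.257). Without TdTomato 1 alone the value in Yap OE also passed it (−2.07, adjusted p = 0.0364). Without TdTomato 4, the highest library, it was −0.93 in Yap OE (adjusted p = 0.391) and −0.12 in LATS KO (adjusted p = 0.945).

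Set side by side in a library, where depth and scaling cancel, the balance of the pair differed between the groups. Cxcl1 had 12.8, 6.90, 1.92, 86.1, 203 and 260 counts for each Cxcl2 count in LATS KO 1 to 6, and 46.9, 23.7, 25.5, 20.3 and 12.7 in Yap OE 1 to 5. In TdTomato 2, 3 and 4 it had 553, 1284 and 951, on only 2, 1 and 5 Cxcl2 counts, and TdTomato 1 held 194 Cxcl1 counts and no Cxcl2 count. Every ratio in LATS KO and Yap OE was thus below the 3 ratios of TdTomato. The highest of them, in LATS KO 5 and 6, rest on only 6 Cxcl2 counts each. These ratios were computed after the values were seen and were not tested.

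**Figure D3:**
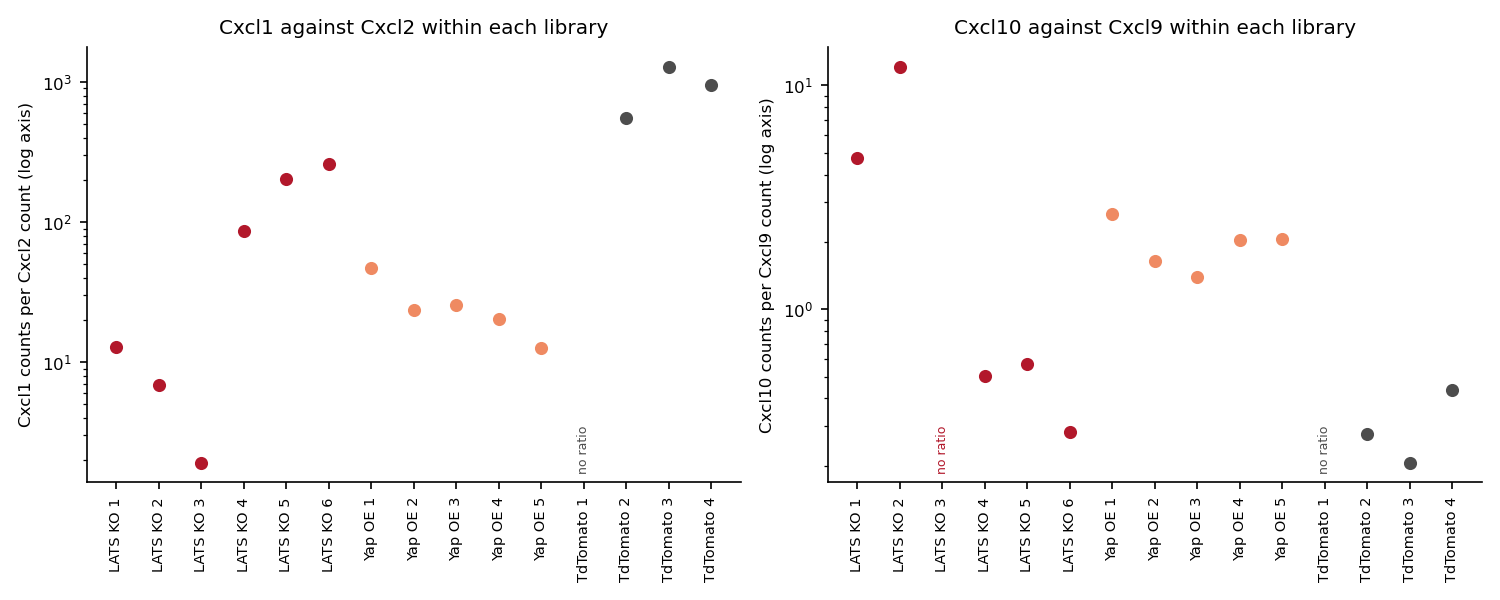
Counts of Cxcl1 per count of Cxcl2 (left, log axis) and of Cxcl10 per count of Cxcl9 (right, log axis) in each library, coloured by group; "no ratio" marks libraries with no count of the second gene. The Cxcl1 to Cxcl2 ratio is 553 to 1284 in TdTomato 2 to 4 and at most 260 elsewhere, and the Cxcl10 to Cxcl9 ratio is 1.39 to 2.66 in Yap OE and 0.207 to 0.436 in TdTomato 2 to 4.

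Cxcr2, the receptor of both ligands, had 53 counts over LATS KO, 12 over Yap OE and 31 over TdTomato and was not kept for testing; all 31 TdTomato counts were in TdTomato 1, which also had 63 Cxcr2 counts on the other strand where no other library had any, and 14 and 32 of the LATS KO counts in LATS KO 1 and 2. Cxcr1 had 1, 0 and 2 counts over LATS KO, Yap OE and TdTomato. Neutrophil markers were low throughout: the 6 of 7 listed that the files name summed to 0 to 14.9 CPM in LATS KO, 1.15 to 3.29 CPM in Yap OE and 0.166 to 2.40 CPM in TdTomato, where Mmp8 had no count. The highest TdTomato sum was Cxcr2 alone, and without Cxcr2 the sums were 0 to 13.9 CPM in LATS KO, 1.11 to 3.11 CPM in Yap OE and 0 to 0.953 CPM in TdTomato. 3 of the markers were tested and 1 rose in each comparison with TdTomato. The highest sums with Cxcr2, 11.7 and 14.9 CPM, were in LATS KO 1 and 2, which had 5.74 and 0.952 CPM of Cxcl2. LATS KO 3, with 5.44 CPM of Cxcl2, held none of the neutrophil markers, at a depth of 6166680 counts. It also held none of the T and NK cell, B cell or dendritic cell markers, so its lack of neutrophil markers is not informative. In bulk tissue, more cells of a type and more RNA per cell cannot be told apart.

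The interferon-inducible ligands were Cxcl9 and Cxcl10. Cxcl10 was at 3.35 to 6.80 CPM in LATS KO (median 5.23), at 13.02, 8.22, 5.61, 6.54 and 16.7 CPM in Yap OE 1 to 5, and at 0, 1.60, 1.51 and 2.44 CPM in TdTomato 1 to 4. Both LATS KO and Yap OE lay wholly above TdTomato, with Yap OE 5 and 1 highest. Cxcl10 rose in Yap OE by 2.84 ± 0.81 on the log2 scale (adjusted p = 0.0182), a call kept without each library in turn. In LATS KO its log2 fold change of 1.87 ± 0.76 missed the threshold (adjusted p = 0.132) but passed it without LATS KO 3 and TdTomato 1 (1.42, adjusted p = 0.0288). TdTomato 1, the poorly mapped control, held no count of Cxcl10, Cxcl9 or Cxcl2.

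Cxcl9 was at 1.14, 0.276, 0, 13.5, 8.83 and 15.3 CPM in LATS KO 1 to 6, at 4.89, 5.00, 4.04, 3.22 and 8.11 CPM in Yap OE 1 to 5 and at 0, 5.79, 7.31 and 5.60 CPM in TdTomato 1 to 4. LATS KO 4 to 6 were above every TdTomato library and LATS KO 1 to 3 below TdTomato 2 to 4, so the group spanned the range of the study. Its log2 fold changes of 0.48 ± 1.22 in LATS KO (adjusted p = 0.860) and 0.11 ± 1.25 in Yap OE (adjusted p = 0.960) did not pass the test, and the sign in Yap OE turned to −0.30 without LATS KO 3 and TdTomato 1.

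The balance of the pair shifted between libraries. Cxcl10 had 4.76 and 12.1 counts per Cxcl9 count in LATS KO 1 and 2 and 0.505, 0.573 and 0.282 in LATS KO 4 to 6, with 53 counts to none in LATS KO 3. In Yap OE 1 to 5 the ratio was 2.66, 1.64, 1.39, 2.03 and 2.06, and in TdTomato 2 to 4 it was 0.276, 0.207 and 0.436. The ratio was thus higher in every Yap OE library than in these 3 TdTomato libraries, a description with no test. Cxcl11, the third ligand of Cxcr3, lies 10.65 kb from Cxcl10, is annotated as a polymorphic pseudogene and overlaps Gm2673 of the other strand over 41.7% of its exons. It was at 0 to 3.24 CPM in LATS KO, 0.214 to 0.549 CPM in Yap OE and 0 to 1.49 CPM in TdTomato, and was not called (log2 fold change 0.55 ± 1.02 in LATS KO, adjusted p = 0.798; −1.31 ± 1.05 in Yap OE, adjusted p = 0.389).

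Cxcr3 itself was not kept for testing, with 20 counts over LATS KO, 2 over Yap OE and 0 over TdTomato. T and NK cell markers were low, with the highest median in TdTomato (1.73 CPM in LATS KO, 0.646 CPM in Yap OE and 2.49 CPM in TdTomato). The 11 of 12 found in the files summed to 0 to 2.79 CPM in LATS KO, 0.465 to 1.14 CPM in Yap OE and 2.20 to 3.64 CPM in TdTomato, where 6 of them (Cd3d, Cd3e, Cd3g, Nkg7, Klrb1c and Ncr1) had no count. The TdTomato level was nearly all Cd4 (47, 27 and 41 counts in TdTomato 2 to 4) and Cd8b1 (47 counts in TdTomato 1). Cd4, the single marker of the list that was tested, was not called (log2 fold change −2.01 ± 1.02 in LATS KO, adjusted p = 0.236, and −2.66 ± 1.09 in Yap OE, adjusted p = 0.0803).

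Cxcl12 is a homeostatic ligand of stroma, endothelium and biliary cells. It was at 152, 139, 114, 227, 261 and 290 CPM in LATS KO 1 to 6, at 152, 164, 149, 137 and 144 CPM in Yap OE 1 to 5 and at 267, 327, 350 and 312 CPM in TdTomato 1 to 4. All Yap OE libraries lay below all TdTomato libraries, as was so for 13.4% of all genes tested in the lower direction, while LATS KO 6 alone of its group reached into the TdTomato range. Cxcl12 fell in Yap OE by 1.07 on the log2 scale (SE 0.26, adjusted p = 0.00837), and the call was kept without each library in turn. With plain library totals the log2 fold change was −0.53 (adjusted p = 0.0263), and relative to the median of all genes it was −1.24 with TMM and −1.26 with plain totals. In LATS KO it was −0.67 ± 0.25 (adjusted p = 0.0950), and −0.81 (adjusted p = 0.0362) without LATS KO 6.

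Cxcr4, the receptor that Cxcl12 activates, moved the other way. It was at 0.270 to 2.24 CPM in LATS KO (median 0.529), at 1.20, 1.19, 2.21, 3.00 and 1.80 CPM in Yap OE 1 to 5, and at 0, 0.110, 0.159 and 0.192 CPM in TdTomato 1 to 4, with no overlap of either group with TdTomato. LATS KO 2 was highest in its group and LATS KO 5 and 6, with 4 and 5 counts, were lowest. Cxcr4 rose by 3.92 ± 0.90 on the log2 scale in Yap OE (adjusted p = 0.00683), a call kept without each library in turn, and by 2.84 ± 0.86 in LATS KO (adjusted p = 0.0448). The LATS KO call was the least stable of these genes: it was lost in 12 of the 15 fits that left out a single library (adjusted p = 0.0530 to 0.114), among them each TdTomato and each Yap OE library and LATS KO 1, 2 and 4, as well as with voom (adjusted p = 0.0644) and without the filter on low counts (0.0693).

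Within a library, Cxcl12 had 61.9 to 969 counts per Cxcr4 count in LATS KO, 45.7 to 138 in Yap OE and 2966, 2202 and 1630 in TdTomato 2 to 4. The TdTomato ratios rest on only 2, 2 and 4 Cxcr4 counts, and TdTomato 1 held 3443 Cxcl12 counts and no Cxcr4 count. The highest LATS KO ratios, in LATS KO 5 and 6, rest on 4 and 5 Cxcr4 counts. These ratios were not tested. Ackr3, an atypical receptor that takes up Cxcl12 and does not signal through G proteins, was at 0 to 0.706 CPM in LATS KO, at 1.05, 1.41, 1.46, 1.25 and 0.314 CPM in Yap OE 1 to 5 and at 0, 0.0552, 0.0794 and 0 CPM in TdTomato. Yap OE lay wholly above TdTomato, whose 4 libraries held 2 counts in all. It rose in Yap OE (log2 fold change 4.86 ± 1.40, adjusted p = 0.0188; ratio of pooled CPM 35.6, 95% interval 9.68 to 296 for counting error) and was not called in LATS KO (2.84 ± 1.35, adjusted p = 0.204). Its call was lost without TdTomato 4 (adjusted p = 0.0578), and the log2 fold change was 5.47 without TdTomato 3.

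Markers of several cell types moved beside Cxcl12 and Cxcr4. Of the 8 hepatocyte markers 3 were lower and none higher in Yap OE, where 10.8% of all genes were called lower. Their median log2 fold change was −1.28 in Yap OE and −0.58 in LATS KO, where none was called. The 10 monocyte and macrophage markers summed to 104 to 777 CPM in LATS KO, 290 to 499 CPM in Yap OE and 0.0774 to 9.10 CPM in TdTomato, and all 10 rose in both comparisons, where 10.04% of all genes rose in LATS KO and 17.9% in Yap OE. The 8 sinusoidal endothelial markers summed to 29.4 to 259 CPM in LATS KO, 96.5 to 164 CPM in Yap OE and 21.6 to 50.4 CPM in TdTomato, with 3 and 2 of 8 higher in LATS KO and Yap OE and none lower, the share in Yap OE being near that of all genes. The 9 stellate cell and fibroblast markers summed to 9.58 to 23.3 CPM in LATS KO, 24.5 to 164 CPM in Yap OE and 0 to 11.6 CPM in TdTomato, with 3 and 8 of 9 higher. Markers near the floor in TdTomato, such as Col1a1 with no count there, passed the filter on the other groups, so these counts of calls are a description. The part of these cell types in the values of Cxcl12, Cxcr4 and Ackr3 was not tested.

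Cxcl13, the B cell attractant, was at 0 to 1.54 CPM in LATS KO (median 1.28), at 3.51, 1.44, 1.61, 2.32 and 3.06 CPM in Yap OE 1 to 5, and at 0, 0.166, 0 and 0.0958 CPM in TdTomato 1 to 4. LATS KO 3, the library with the fewest counts, held none, so LATS KO overlapped TdTomato, while Yap OE did not. Cxcl13 rose by 4.95 ± 1.08 on the log2 scale in Yap OE (adjusted p = 0.00550) and by 3.79 ± 1.03 in LATS KO (adjusted p = 0.0281). The Yap OE call was kept without each library in turn, with 5.75 without TdTomato 2. The LATS KO call was lost without any single TdTomato library or LATS KO 2 (adjusted p = 0.0501 to 0.0779), and without TdTomato 2 the log2 fold change was 4.59.

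Its receptor Cxcr5 had 7 counts over LATS KO, 4 over Yap OE and 1 over TdTomato, against 48, 70 and 14 on the other strand, and was not kept for testing. The 5 B cell markers summed to at most 0.745 CPM in LATS KO, 0.470 CPM in Yap OE and 0.192 CPM in TdTomato, and none was kept. The rise of Cxcl13 was thus measured in livers in which B cell markers were close to 0 counts.

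Cxcl14, a homeostatic chemokine of epithelia whose receptor is unsettled, separated the LATS KO libraries. It was at 121, 134, 110, 1.32, 3.24 and 1.98 CPM in LATS KO 1 to 6, at 3.11, 7.52, 21.0, 7.65 and 6.51 CPM in Yap OE 1 to 5 and at 12.7, 1.60, 2.07 and 13.3 CPM in TdTomato 1 to 4. LATS KO 1 to 3 stood above all other libraries, LATS KO 4 was below the TdTomato range and LATS KO 5 and 6 within it, and Yap OE overlapped TdTomato. The log2 fold change in LATS KO was 3.06 ± 1.26 (adjusted p = 0.136), and in Yap OE it was 0.30 ± 1.16 (adjusted p = 0.882), neither past the threshold. In Yap OE the sign turned without Yap OE 3 (−0.26).

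Cholangiocyte markers split the LATS KO libraries in the same place. The 7 cholangiocyte markers summed to 4443, 1971 and 1350 CPM in LATS KO 1 to 3 and to 217, 108 and 145 CPM in LATS KO 4 to 6, against 3790 to 6273 CPM in Yap OE and 45.1 to 61.4 CPM in TdTomato. Reads that the counting assigned to no annotated feature made up 7.05% and 6.57% of the mapped reads in LATS KO 1 and 2. In LATS KO 3 to 6 they made up 18.0%, 17.2%, 25.8% and 20.8%, a split in another place. Whether these measures play a part in the levels of Cxcl14, Cxcl9 and Cxcl12 was not tested.

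Cxcl16 is made as a transmembrane protein that also takes up oxidised lipids, and is shed by proteases of the ADAM family. It was at 4.76 to 16.9 CPM in LATS KO (median 8.34), at 10.4, 10.5, 14.8, 17.1 and 16.2 CPM in Yap OE 1 to 5, and at 4.65, 1.38, 1.59 and 2.01 CPM in TdTomato 1 to 4. No LATS KO or Yap OE library overlapped TdTomato, although LATS KO 1 and 6, at 4.76 and 4.81 CPM, were next to TdTomato 1. Cxcl16 rose by 2.52 ± 0.55 on the log2 scale in Yap OE (adjusted p = 0.00544) and by 1.91 ± 0.52 in LATS KO (adjusted p = 0.0295). The Yap OE call was kept without each library in turn. The LATS KO call was lost without TdTomato 2, 3 or 4 or without LATS KO 2 (adjusted p = 0.0711 to 0.0971).

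Cxcr6, its receptor on T and NKT cells, was detected in few libraries. It had 4, 4 and 9 counts in LATS KO 4, 5 and 6 and none in LATS KO 1 to 3, 2 and 1 counts in Yap OE 3 and 4 and none in the other Yap OE libraries, and none in TdTomato. The 17 counts in LATS KO, taken as exact, correspond to 3.20 times the level that 3 counts over TdTomato would give, and to 1.76 times without LATS KO 6. The exact two-sided permutation test of mean log2 CPM gave p = 0.333 for LATS KO and p = 0.556 for Yap OE (adjusted over the 3 comparisons 0.5 and 0.556), so no difference was detectable at this depth. Cxcl16 thus rose in libraries in which its receptor was at or near the limit of detection.

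To set different genes beside each other, CPM was divided by the length in kilobases of all annotated exons of a gene, merged over its transcripts. That length was 8176 bases for Cxcl12, 1875 for Cxcl1 and 1827 for Cxcl14. A gene whose expressed transcripts are shorter than its merged exons is understated, so the order of these 3 depends on the lengths used. On this scale 3 ligands made up most of the summed level. In LATS KO the mean level was 33.9 ± 36.1 CPM per kb for Cxcl14, 29.1 ± 19.9 for Cxcl1 and 24.1 ± 8.84 for Cxcl12 (SD, n = 6), followed by Cxcl16 at 2.98 ± 1.56, Cxcl10 at 2.28 ± 0.535, Cxcl9 at 2.16 ± 2.30, Cxcl2 at 1.10 ± 1.25, Cxcl13 at 0.918 ± 0.511, Cxcr4 at 0.481 ± 0.432 and Cxcr6 at 0.0851 ± 0.112. The ranges of neighbours in this order overlapped except between Cxcl12 and Cxcl16. In Yap OE it was 18.3 ± 1.23 CPM per kb for Cxcl12, 16.6 ± 5.51 for Cxcl1, 5.01 ± 3.76 for Cxcl14, 4.57 ± 1.05 for Cxcl16, 4.45 ± 2.09 for Cxcl10, 2.08 ± 0.778 for Cxcl13, 1.68 ± 0.616 for Cxcl9, 1.04 ± 0.421 for Cxcr4, 0.683 ± 0.406 for Cxcl2 and 0.0115 ± 0.0172 for Cxcr6 (n = 5). Here the ranges of neighbours overlapped except between Cxcl1 and Cxcl14 and between Cxcl2 and Cxcr6. In TdTomato it was 54.1 ± 48.7 CPM per kb for Cxcl1, 38.4 ± 4.29 for Cxcl12, 4.05 ± 3.53 for Cxcl14, 1.55 ± 1.06 for Cxcl9, 0.797 ± 0.502 for Cxcl16, 0.616 ± 0.451 for Cxcl10, 0.0637 ± 0.0463 for Cxcr4, 0.0568 ± 0.0701 for Cxcl13, 0.0519 ± 0.0482 for Cxcl2 and 0 for Cxcr6 (n = 4). The ranges of neighbours overlapped there except between Cxcl12 and Cxcl14.

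The makeup of the ligands also differed by library. Cxcl14 gave 50.4%, 71.4% and 68.1% of the summed CPM per kb of the 8 ligands in LATS KO 1 to 3 and 0.982% to 2.05% in LATS KO 4 to 6. The share of the 5 ligands with lower group means together (Cxcl2, Cxcl9, Cxcl10, Cxcl13 and Cxcl16) was 5.90% to 17.2% in LATS KO, 20.3% to 32.5% in Yap OE and 2.23% to 4.28% in TdTomato, and the groups did not overlap. The order of the means did not hold in every library. In LATS KO 4, Cxcl14 was at 1.32 CPM over 1827 bases of exon and Cxcl9 at 13.5 CPM over 3016 bases. The shares were not tested, and each depends on the levels and the merged exon lengths of Cxcl1, Cxcl12 and Cxcl14.

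**Figure D4:**
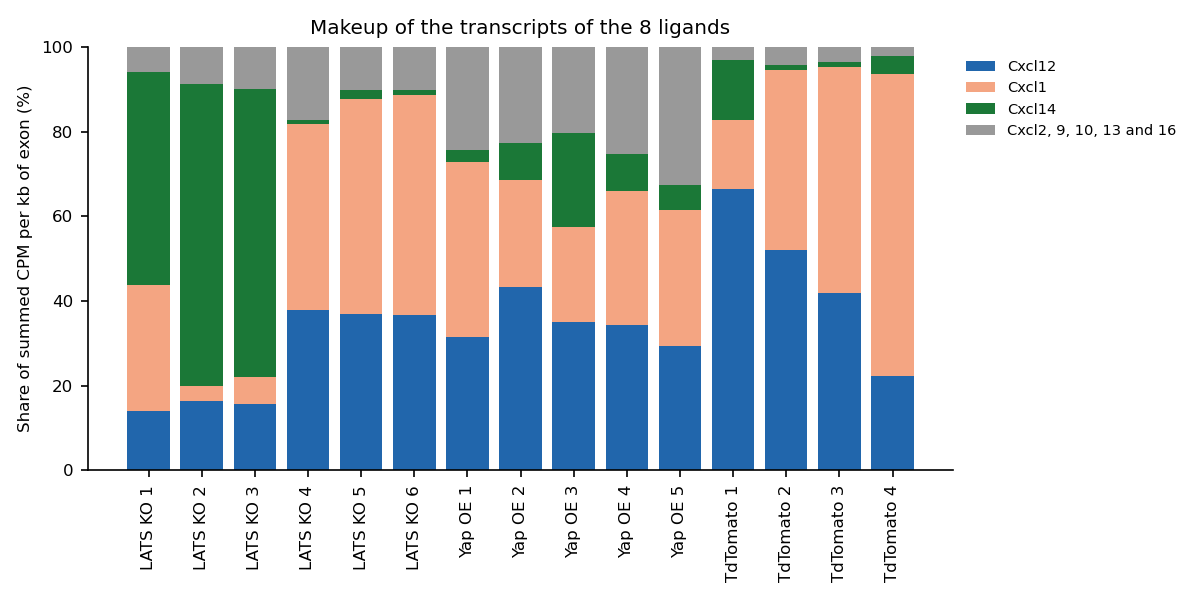
Share of each ligand in the summed CPM per kb of exon of the 8 ligands (vertical axis, 0 to 100%), with 1 bar per library in the order LATS KO, Yap OE, TdTomato. Cxcl14 fills 50.4% to 71.4% of the bar in LATS KO 1 to 3, and the grey segment of the 5 ligands with lower group means reaches 20.3% to 32.5% in Yap OE, against at most 4.28% in TdTomato.

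Yap OE and LATS KO were then compared directly. None of the 9 genes tested differed at an adjusted p under 0.05, where 0.988% of all genes were called (edgeR). 1 of the 9, Cxcl14, had an unadjusted p under 0.05 in edgeR, as did 1910 of the 13055 genes tested, so this does not set Cxcl14 apart. DESeq2 called 0 of the 9, where it called 779 of all genes. Limma with voom and quality weights called 4 of the 9, where it called 7325 of all genes, so these 4 calls do not set the CXC genes apart. The log2 fold changes of Yap OE over LATS KO were −2.76 ± 1.13 for Cxcl14 (adjusted p = 0.258), −0.81 ± 0.66 for Cxcl1 (0.677), −0.67 ± 0.83 for Cxcl2 (0.829) and −0.40 ± 0.24 for Cxcl12 (0.483). They were 1.16 ± 0.75 for Cxcl13 (0.548), 1.08 ± 0.67 for Cxcr4 (0.516), 0.96 ± 0.66 for Cxcl10 (0.576), 0.61 ± 0.45 for Cxcl16 (0.615) and −0.37 ± 1.13 for Cxcl9 (0.953). The ranges of the groups overlapped for each of the 9, where 6.71% of all genes did not overlap, and p-values above the threshold do not show that the levels were alike. Cxcr6 gave p = 0.307 (adjusted 0.5) in the exact permutation test.

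Of the other CXC ligands, Pf4 (Cxcl4, of platelets) was called in both comparisons and Cxcl17 (a mucosal chemokine) in Yap OE, both against TdTomato libraries that held no count. Pf4 was at 0.379, 5.65, 0, 0.351, 0.135 and 1.38 CPM in LATS KO 1 to 6 and at 0.277, 0.593, 0.711, 0.715 and 1.69 CPM in Yap OE 1 to 5. LATS KO 2, with 184 of the 224 counts of its group, stood apart. Against a floor of 3 counts over the TdTomato group, the pooled counts of Pf4 were at least 42.1-fold higher in LATS KO (adjusted p = 0.0255) and at least 16.5-fold higher in Yap OE (adjusted p = 0.01999). Without LATS KO 2 the bound in LATS KO was 10.5. The LATS KO call was lost without any single TdTomato library (adjusted p = 0.0512 to 0.0677), and the fitted log2 fold change was 6.25 without LATS KO 2, against 7.84 with it. Platelet and megakaryocyte markers, Pf4 among them, summed to 0 to 7.25 CPM in LATS KO, 2.68 to 5.88 CPM in Yap OE and 0 to 1.03 CPM in TdTomato. The highest sum, in LATS KO 2, was mostly Pf4 itself (5.65 of 7.25 CPM), and Gp9 of this list had no count in LATS KO. The sums are therefore no separate measure of platelets beside Pf4.

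Cxcl17 was at 2.16, 1.84, 0, 0.0438, 0.0674 and 0 CPM in LATS KO 1 to 6 and at 0.615, 1.96, 1.01, 1.11 and 1.41 CPM in Yap OE 1 to 5. It was at least 25.7-fold higher in Yap OE (adjusted p = 0.0197) and was not called in LATS KO (adjusted p = 0.0567), where 40 and 60 of its 102 counts were in LATS KO 1 and 2. Cxcl3, Cxcl5 and Ppbp were not kept for testing, with 8, 3 and 8 counts over LATS KO, 1, 13 and 29 over Yap OE and 0, 0 and 1 over TdTomato, and Cxcl15, a lung chemokine, had no count anywhere. In all, 1 of the 7 other ligands rose in LATS KO and 2 in Yap OE, of 3 tested. Pf4 and Cxcl17 passed the filter on low counts on the groups in which they were high, so these counts are a description. Ackr1, an atypical receptor that binds many chemokines, was not called in LATS KO (2.52 ± 1.14, adjusted p = 0.180) or in Yap OE (2.90 ± 1.17, adjusted p = 0.0735), with 48, 83 and 5 counts over LATS KO, Yap OE and TdTomato. Of the 6 other receptors 2 were tested, none of which rose in LATS KO and 1 of which, Ackr3, rose in Yap OE. Ackr1 and Ackr3, with 5 and 2 counts over TdTomato, also passed the filter on the other groups, so these counts too are a description.

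Genes of related signalling and of ligand processing were counted by list. Some of them passed the filter on low counts on the groups in which they were high. Rgs1 and Mmp2 had 0 counts over TdTomato, Mmp9 had 2, Dock2 had 3 and Il1b had 5. The counts of calls per list are therefore a description and support nothing. Of the 15 of 16 genes of NF-kB, IL-1 and TNF signalling that were tested, 2 rose in LATS KO and 6 in Yap OE, and none fell, with medians of 0.58 and 0.79 on the log2 scale. Over all genes 10.04% rose in LATS KO and 17.9% in Yap OE, with medians of 0.13 and 0.17, so the share of this list in LATS KO was near that of all genes. Il1b, a cytokine that induces Cxcl1 and Cxcl2, averaged 2.39 ± 1.85 CPM in LATS KO, 5.20 ± 2.84 CPM in Yap OE and 0.0774 ± 0.0670 CPM in TdTomato (SD). Its log2 fold change was 4.85 ± 1.13 in LATS KO (adjusted p = 0.0148, lost without TdTomato 2 or 4) and 5.97 ± 1.19 in Yap OE (adjusted p = 0.00381). Il1a, the related cytokine, averaged 3.43 ± 2.20 CPM in LATS KO and 0.323 ± 0.298 CPM in TdTomato (3.35 ± 0.83, adjusted p = 0.0196, lost without TdTomato 3 or 4). Nfkbie, an inhibitor of NF-kB, averaged 18.4 ± 3.11 CPM in Yap OE and 1.64 ± 1.25 CPM in TdTomato (3.47 ± 0.87, adjusted p = 0.00964).

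Of the 10 of 11 genes of interferon-gamma signalling that were tested, 2 rose in LATS KO and 4 in Yap OE, and none fell, with medians of 1.62 and 1.38, against the same 10.04% and 17.9% of all genes. Gbp2, an interferon-induced GTPase, averaged 6.93 ± 2.57 CPM in LATS KO, 11.1 ± 2.57 CPM in Yap OE and 1.05 ± 0.785 CPM in TdTomato. Its log2 fold change was 2.70 ± 0.75 in LATS KO (adjusted p = 0.0312, lost without TdTomato 2, 3 or 4 or LATS KO 4) and 3.38 ± 0.79 in Yap OE (adjusted p = 0.00715). Ifngr1, a subunit of the interferon-gamma receptor, averaged 77.2 ± 71.0 CPM in LATS KO, 95.7 ± 16.8 CPM in Yap OE and 10.2 ± 1.03 CPM in TdTomato, and rose by 2.91 ± 0.66 in LATS KO (adjusted p = 0.0129) and 3.22 ± 0.68 in Yap OE (adjusted p = 0.00474).

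Of the 6 proteases that shed or trim chemokines, 1 rose in LATS KO and 2 in Yap OE, and none fell, with medians of 0.84 and 1.30, against 10.04% and 17.9% of all genes that rose. Mmp9, a gelatinase of leukocytes, averaged 2.23 ± 3.16 CPM in LATS KO and had 2 counts over TdTomato (ratio of pooled CPM 103, 95% interval 28.4 to 856; adjusted p = 0.0144, lost without TdTomato 2). Without LATS KO 2 the ratio of Mmp9 was 34.3. Its fitted log2 fold change was 5.93, 4.71 without LATS KO 2 and 6.55 without TdTomato 3. Mmp2, a gelatinase of mesenchymal cells, averaged 1.79 ± 1.26 CPM in Yap OE with no count over TdTomato, at least 38.0-fold higher (adjusted p = 0.00477), and was not called in LATS KO (adjusted p = 0.0807). Mmp14, a membrane-bound protease, averaged 110 ± 16.8 CPM in Yap OE and 35.3 ± 6.07 CPM in TdTomato (1.64 ± 0.44, adjusted p = 0.0131).

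Of the 12 genes of receptor G protein signalling, 5 rose in LATS KO and 6 in Yap OE, where 1 fell, with medians of 1.49 and 1.72. Over all genes the shares were 10.04% higher and 0.973% lower in LATS KO and 17.9% and 10.8% in Yap OE. Rgs2, which shortens G protein signals, averaged 10.5 ± 5.34 CPM in LATS KO, 10.99 ± 4.86 CPM in Yap OE and 0.459 ± 0.297 CPM in TdTomato, and rose by 4.50 ± 0.65 in LATS KO (adjusted p = 0.00319) and 4.57 ± 0.66 in Yap OE (adjusted p = 0.00106). Dock2, which links chemokine receptors to leukocyte movement, averaged 6.88 ± 6.76 CPM in LATS KO and had 3 counts over TdTomato (ratio of pooled CPM 178, 95% interval 60.6 to 863; adjusted p = 0.00712). Without LATS KO 2 the ratio of Dock2 was 86.8. Its fitted log2 fold change was 6.90, 6.27 without LATS KO 2 and 10.23 without TdTomato 3, the library that held all its control counts. Rgs1, a regulator of the same class in leukocytes, averaged 7.88 ± 3.92 CPM in Yap OE with no count over TdTomato, at least 168-fold higher (adjusted p = 0.00257). In Yap OE against LATS KO, edgeR called none of the tested genes of these lists.

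The genes whose pattern over the 15 libraries was nearest to each of the 9, by the mean absolute difference of centred log2 CPM (0 for identical patterns), were found among all genes tested. Cxcl12 had the smallest distances, Pex5 at 0.0868 and Tgoln1 at 0.112, where the median gene was at 0.964. It also varied least, with a mean absolute deviation of 0.502 on the same scale, against 1.02 (Cxcl16) to 2.28 (Cxcl9) for the others. The distance is smaller for genes that vary little, so it does not rank these genes against each other. Cxcl10 was nearest to Gbp2 (0.315) and Dnase1l1 (0.399), Cxcl16 to Cdkn2c (0.402) and Pea15a (0.429), and Cxcl9 to Dleu2 (0.408) and Meiob (0.424). Cxcl13 was nearest to Ttc28 (0.464) and Cd48 (0.495), Cxcl1 to Mgll (0.480) and Asb13 (0.549), Cxcr4 to Frmd4a (0.496) and Nck2 (0.518), and Cxcl2 to Dnah1 (0.589) and Dynlt1a (0.599). For Cxcl14 the nearest were Lhx6 and Lcn2 at 1.17 and 1.18, where its own deviation was 1.80 and the median gene was at 2.12. The libraries share depth and group, so the distances describe patterns only.

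Leaving out both LATS KO 3 and TdTomato 1 kept all 4 calls in LATS KO and all 6 in Yap OE among these genes and added Cxcl10 in LATS KO and Cxcl1 in Yap OE, as given with each gene. Over all genes it called 2245 instead of 1438 in LATS KO, 6416 instead of 3744 in Yap OE and 1688 instead of 129 in Yap OE against LATS KO.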

How the data were processed

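Raw read counts per gene, as the authors deposited them, come in 3 columns per library (without strand, forward and reverse). The submitters' processing notes list FastQC, Trimmomatic, STAR and the mm10 build; versions and settings are not given in the sources used here. The labels' protocols describe poly(A) selection and a directional kit, and their extraction text describes other mice, so nothing on animals was taken from it. The reverse-strand column was used (the forward column held 0.966% to 1.99% of strand-assigned counts). Lines that name no gene, 14.2% to 92.5% of the reads, were left out. STAR counts only uniquely mapped reads for a gene, so near relatives such as Cxcl1, Cxcl2 and Cxcl3 rest on their distinct sequence.

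CPM used TMM-scaled library sizes. Genes kept by filterByExpr (13055 of 24411) were tested with the two-sided quasi-likelihood test of edgeR 4.0.16 in R 4.3.3, in 1 fit of all 15 libraries with the group as its only term and 12 residual degrees of freedom, with p-values adjusted after Benjamini and Hochberg over those genes (threshold 0.05). SE is the size of the log2 fold change over the square root of the test statistic. Cxcr6, dropped by the filter, had an exact permutation test on log2 CPM (prior count 0.5). Folds against groups without counts used a floor of 3 counts over the group. Such bounds allow for counting error in the group without counts only and take the counts of the other group as exact. The 95% intervals cover counting error only. All pairs of replicates differed by more than sampling noise, and the procedure was tested on simulated counts.

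The genes and lists were chosen with earlier results of these data known. Named were the 10 genes, all other CXC genes, up to 2 genes with the smallest adjusted p per further list and comparison with TdTomato, and the 2 nearest patterns per gene. Grk2 and Grk3 were matched as Adrbk1 and Adrbk2, and Ly6g and Trac had no match. Annotation was GENCODE M21 of GRCm38 (mm10). Alternatives were RLE size factors, plain totals, DESeq2 1.42.0, voom with quality weights (limma 3.58.1), other filters (no filter, or CPM of at least 1 in 4 libraries), the unstranded column, the replicate number as a block, a fit without the group not compared, and libraries left out.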

Additional observations from a re-analysis of the deposited data

Results flagged for a closer look

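2 of 29 group values of these genes had a library whose gap to the next was large for the range of its group; chance gives about 1 in 20. Cxcl2 was at 2.86 CPM in Yap OE 5, against 0.860 to 1.43 CPM in the other Yap OE libraries, and its call in Yap OE was lost without this library. Cxcl14 was at 21.0 CPM in Yap OE 3, against 3.11 to 7.65 CPM in the other Yap OE libraries, and without it the sign of the uncalled difference from TdTomato turned.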

How the results depend on the processing

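For LATS KO against TdTomato, 1438 genes and 4 of the CXC genes were called. The genes called were 2894 with DESeq2, 3501 with voom, 1 with only the 2 groups compared, 740 with the replicate block and 2245 without both TdTomato 1 and LATS KO 3, and 588 to 1798 when single libraries were left out (588 to 897 without TdTomato 2, 3 or 4 or LATS KO 2). The CXC genes called were 7 with DESeq2, 0 with only the 2 groups compared, 0 with the replicate block and 0 to 5 when single libraries were left out (0 without TdTomato 2, 3 or 4, 1 without TdTomato 1 or LATS KO 2). For Yap OE against TdTomato (3744 genes, 6 CXC genes), 8868 genes were called with voom and 6416 without both TdTomato 1 and LATS KO 3, and 2585 to 4973 genes and 5 to 7 CXC genes with single libraries left out. For Yap OE against LATS KO (129 genes, 0 CXC genes), 779 were called with DESeq2, 7325 with voom, 13 with the replicate block, 1688 without both, and 36 to 389 with single libraries left out (312 to 389 without TdTomato 1, LATS KO 2 or LATS KO 3, 36 to 72 without LATS KO 4 to 6 or any Yap OE library); voom called 4 CXC genes. The cause was not tested.

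Signs turned only for differences that were not called. Cxcl9 turned to −1.07 with the replicate block in LATS KO, to −0.46 with voom and −0.30 without both in Yap OE (−0.30 to 0.40 with single libraries left out), and in Yap OE against LATS KO to 0.19 with plain totals and 1.19 with the block (−0.63 to 0.087). In LATS KO, Cxcl11 turned to −0.40 with the block (−0.011 to 1.00) and Ackr3 to −0.086 with voom. Cxcl14 in Yap OE ranged over −0.26 to 0.75, and in Yap OE against LATS KO voom turned Cxcl14 to 1.58 and Cxcl2 to 0.80. Over the 9 genes and 3 comparisons, 369 of 405 values with a single library left out and 237 of 270 under other alternatives kept their direction and their side of the threshold. Replicate numbers do not pair the libraries: of 13 pairs with the same number, 5 correlated over 0.1 (−0.233 to 0.199), so the block was no part of the design. With the block, Cxcl2 and Cxcl10 were the calls lost in Yap OE, and no CXC gene was called in LATS KO. Depth limits the control side: with 8, 5, 8 and 0 counts of Cxcl2, Cxcl13, Cxcr4 and Cxcr6 over TdTomato, a few counts set the size of the fold.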
